A study of Bos taurus with 8 samples.

Results

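Smooth muscle and mesenchymal cells (SMMCs) were 1 of 11 cell types that the authors labelled in freshly digested bovine skeletal muscle. They were taken here as the cells of the muscle library (Timepoint 1) whose deposited label was SMMCs, which gave 548 cells of 4395 kept cells in that library and of 36129 in the whole series. The remaining 3847 cells of the muscle library served as the comparison, of which 1231 were fibro-adipogenic progenitors (FAPs), 1166 vascular endothelial cells (VECs) and 647 satellite cells (SCs). The label also covers 365 of 9591 cells after 72 h of culture, which were not analysed here.

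Mural cells wrap the vessels of skeletal muscle. Vascular smooth muscle cells ring arterioles and contract when myosin light chain kinase, activated by calcium and calmodulin, phosphorylates the myosin light chain so that smooth muscle myosin pulls on alpha actin filaments. Pericytes sit within the basement membrane of capillaries, carry few contractile filaments and are known for PDGF receptor beta, ATP-sensitive potassium channels and the signalling regulator RGS5. The labels alone do not say which of these kinds the SMMCs hold.

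The study followed muscle-derived cells from 10 Belgian Blue cattle through long-term culture. For Timepoint 1, semitendinosus muscle was digested with collagenase and the unsorted mononuclear cells of all donors were pooled into 1 droplet library, so that the animals, told apart by their genotypes, were the only replicates and the library itself had none. The calves were donors 2, 4, 5, 7 and 10, the adults donors 1, 3, 6, 8 and 9. Donors 6, 8 and 10 were males and the rest females. No animal was treated and no cell had been cultured or sorted.

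Each donor contributed between 22 and 145 SMMCs, with 78426 to 504628 unique molecular identifiers (UMIs, each standing for 1 captured transcript) summed over them. The SMMCs held 1950899 of the 20977722 UMIs in kept cells. A median SMMC had 2792 UMIs from 1344.5 genes, close to the 2778.5 UMIs of a VEC and below the 6213 of a FAP, and 3.98% of its UMIs were mitochondrial. Of the barcodes kept in SMMCs, 2 were also kept in another library of the series.

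The labelled cells were described first by their markers. The authors drew the label from expressed genes, so high markers in these cells are no independent support for it. Alpha smooth muscle actin (ACTA2, ENSBTAG00000014614), the main actin of vascular smooth muscle, ranged from 4335 to 17262 CPM (UMIs of the gene per 1000000 UMIs summed over the SMMCs of an animal), with a median of 7560. In the other cells of the same animals it lay between 24.8 and 180 CPM. At least 1 ACTA2 UMI was found in 96.4% of SMMCs (95% Wilson interval 94.4% to 97.6%), against 7.55% of VECs, cells of the same median depth that should lack the gene, and 30.8% of SCs. Intervals given here cover counting error only.

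Calponin 1 (CNN1, ENSBTAG00000011207), an actin-binding protein of differentiated smooth muscle, ranged from 195 to 2829 CPM in SMMCs with a median of 751, and reached 4.77 CPM at most in the other cells. It was found in 169 SMMCs, or 30.8% (95% Wilson interval 27.1% to 34.8%), against 1.03% of VECs. Myosin light chain kinase (MYLK, ENSBTAG00000014567), which starts contraction, ranged from 543 to 1130 CPM with a median of 703, against 5.72 to 22.7 CPM in the other cells, and was found in 55.7% of SMMCs and 9.43% of VECs. No SMMC value of any of the 3 genes overlapped with the values of the other cells. ACTA2 was found in nearly the whole label and CNN1 in a minority of its cells.

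**Figure D1:**
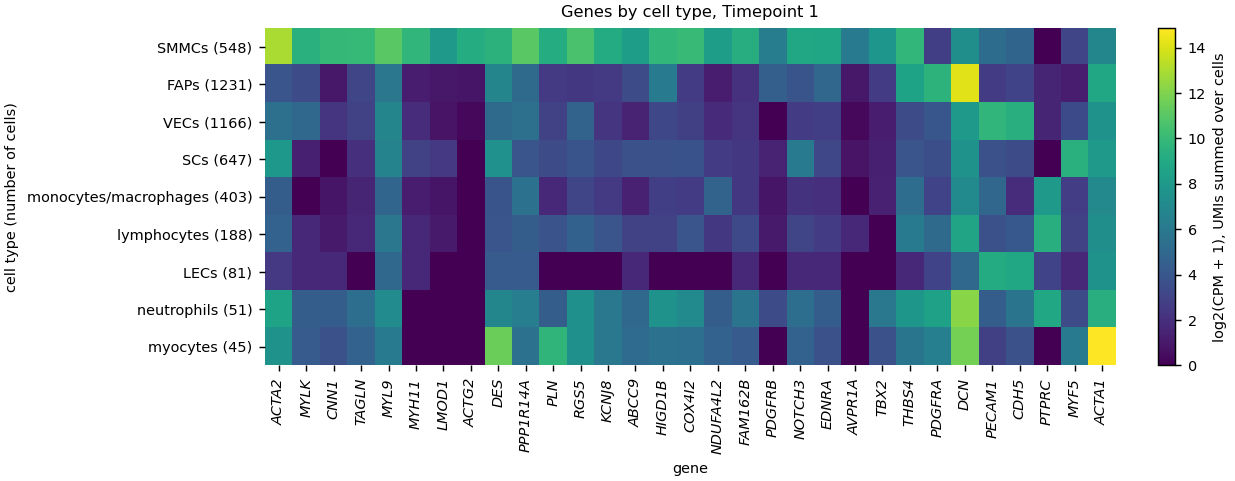
Heat map of log2(CPM + 1), with UMIs summed over the cells of each type, for genes of the lists described here (horizontal axis) in the cell types of the muscle library (vertical axis, with the number of cells). The SMMC line is high for both contractile genes such as ACTA2 (8147 CPM over all SMMCs) and pericyte genes such as RGS5 (1535 CPM). Neutrophils, myocytes, tenocytes and glial cells left aside, the next highest type reached 245 CPM for ACTA2 (SCs) and 25.2 CPM for RGS5 (VECs).

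Across all genes with at least 100 UMIs (10106), 243 genes, or 2.40%, were at least 2-fold higher in SMMCs than in the other cells in every animal, and 671 genes, or 6.64%, were at least 2-fold lower in every animal. By a difference of any size, 749 genes (7.41%) were higher and 1522 (15.1%) lower in every animal. The median log2 ratio over all 10106 genes was 0.04. Thinning the summed profiles to the smallest total reduced both 2-fold counts, that of lower genes more, with the values given at the end. Because the label was itself drawn from gene expression, these counts and the ratios that follow describe the cells and carry no test. A ratio is the median over animals of the log2 ratio of CPM with 0.5 UMIs added.

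Genes of the contractile apparatus were far higher in SMMCs. Of its 17 listed genes, 14 were at least 2-fold higher in every animal, 16 were higher by any size and none was lower in every animal, with a median log2 ratio of 4.12, and the list summed to 20121 to 62076 CPM in SMMCs against 2436 to 3446 CPM in the other cells. Gamma-2 smooth muscle actin (ACTG2), the actin of visceral muscle, had the largest ratio of the 25 genes with the largest ratios, 10.16, at 128 to 2331 CPM in SMMCs and at most 1.34 CPM elsewhere. Smooth muscle myosin heavy chain (MYH11), the motor of smooth muscle, stood at 971 ± 597 CPM (SD, n = 10 animals) against 2.67 ± 0.77 CPM.

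Transgelin (TAGLN), an actin cross-linker, varied little between animals at 1024 ± 191 CPM, against 5.76 ± 2.52 CPM. The tropomyosins TPM2 and TPM1, which line actin filaments, reached 5263 ± 1760 and 3000 ± 955 CPM. MYL6, a myosin light chain that non-muscle cells use too, had 6640 ± 1307 CPM against 1583 ± 190 CPM. CNN2, the calponin of non-muscle cells, had the smallest ratio of the list, at 108 ± 54.2 CPM against 35.1 ± 11.3 CPM. ACTA2, ACTG2 and the skeletal actin ACTA1 encode nearly the same protein, and how the counting divided reads between them is uncertain.

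Transcripts for proteins that anchor these filaments were partly higher. In the list of actin cytoskeleton and focal adhesion genes, 14 of 24 were at least 2-fold higher in every animal, 22 were higher by any size and none was lower in every animal, with a median log2 ratio of 2.21. The LIM protein CSRP1, which binds alpha-actinin, stood at 2011 ± 594 CPM against 208 ± 29.7 CPM, filamin A (FLNA), which cross-links actin, at 1741 ± 549 against 114 ± 22.2 CPM, and PGM5, which sits at adhesion plaques, at 1094 ± 198 against 75.3 ± 23.5 CPM. CSRP2, the LIM protein of arterial smooth muscle, had the largest ratio of this list, 4.07, and the SD between animals, 721 CPM, was nearly as large as its mean of 799 CPM. The adaptor SORBS3 did not differ by this measure, with a log2 ratio of 0.01 and 5 animals on either side.

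Genes that set the force of contraction followed the same pattern. Of 19 genes with enough UMIs, 13 were at least 2-fold higher in every animal, 14 were higher by any size and none was lower in every animal, with a median log2 ratio of 2.96. PPP1R14A, the inhibitor that keeps myosin phosphatase off its substrate, had 2297 ± 534 CPM against 35.8 ± 11.6 CPM. RGS5, which shortens signalling from G protein-coupled receptors and is a pericyte marker, ranged from 1084 to 2338 CPM against 6.92 to 33.4 CPM. The nitric oxide receptor subunits GUCY1A1 and GUCY1B1 stood at 659 ± 238 and 542 ± 112 CPM against 74.4 ± 20.6 and 34.4 ± 8.86 CPM. IRAG1, the substrate of cGMP-dependent kinase that holds back calcium release, had the largest ratio of the list, 6.98, and its kinase PRKG1 had 136 ± 33.3 CPM against 13.6 ± 7.19 CPM. Phospholamban (PLN), the brake on the calcium pump, was at 569 ± 179 CPM against 14.6 ± 7.46 CPM.

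Of the listed ion channels and pumps, 9 of 22 had too few UMIs to describe, among them the calcium channel CACNA1C and the large potassium channel KCNMA1. Of the 13 others, 8 were at least 2-fold higher in every animal and 1 was at least 2-fold lower. By any size 11 were higher in every animal. Both subunits of the vascular ATP-sensitive potassium channel, the pore KCNJ8 (604 ± 143 against 7.10 ± 6.74 CPM) and the sulfonylurea receptor ABCC9 (344 ± 115 against 8.03 ± 3.14 CPM), were among the 8. The connexins GJA4 and GJC1, which couple vascular cells, were higher in every animal at 602 ± 164 and 188 ± 73.6 CPM, whereas the connexin GJA1 was the gene that was lower, with 6.31 ± 7.42 CPM against 93.1 ± 22.7 CPM. Members of 1 family thus went in opposite directions.

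Vasoactive receptors were sparse. Of 32 listed receptors, 15 had too few UMIs, and 7 of those 15, including the alpha-2 adrenergic receptors ADRA2A and ADRA2C, had none in SMMCs, which allows up to 3 UMIs over all SMMCs. Of the 17 described, 6 were at least 2-fold higher and 2 at least 2-fold lower in every animal, and 8 and 2 were so by any size. The endothelin receptor EDNRA, the chief constrictor receptor for endothelin, had 451 ± 109 CPM against 13.9 ± 8.91 CPM. The vasopressin receptor AVPR1A had the largest ratio, 6.27, at a low level of 78.5 ± 31.0 CPM. The sphingosine-1-phosphate receptor S1PR3 stood at 267 ± 67.2 CPM and the orphan receptor MRGPRF at 282 ± 79.2 CPM. The angiotensin receptor AGTR1 was at 362 ± 126 CPM in SMMCs, and FAPs held 309 CPM of it. Its log2 ratio was 1.62, with 0.18 in the lowest animal, and did not reach 2-fold in every animal. CALCRL, the calcitonin receptor-like receptor of endothelium, was lower, with a log2 ratio of -3.22.

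**Figure D2:**
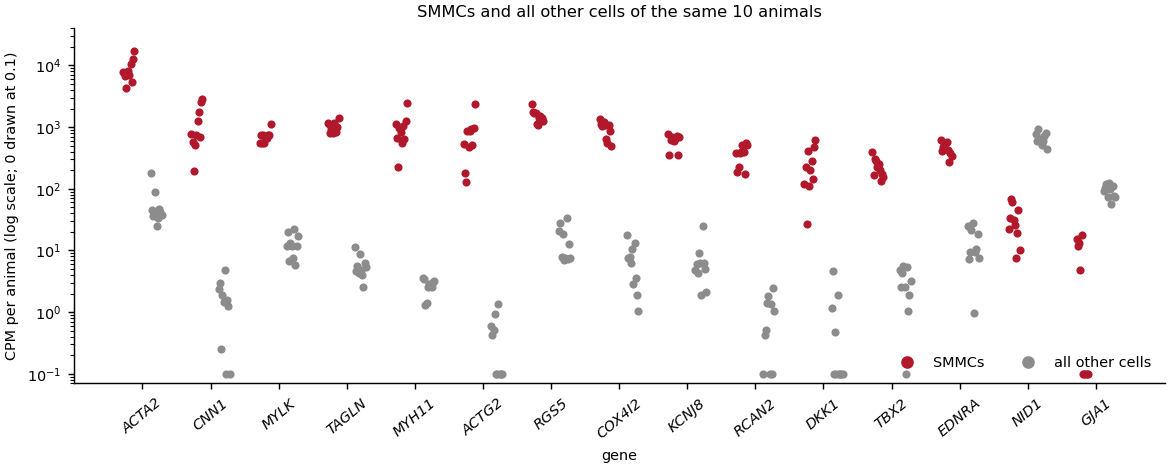
CPM per animal on a log axis (0 drawn at 0.1) for marker and pericyte genes, with SMMCs in red and all other cells of the same 10 animals in grey. For ACTA2 the SMMC points lie between 4335 and 17262 CPM and the other points between 24.8 and 180 CPM, and for RGS5 between 1084 and 2338 and between 6.92 and 33.4 CPM.

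Pericyte genes were high in SMMCs as well. Of 14 with enough UMIs, 12 were at least 2-fold higher in every animal and 13 were higher by any size, with a median log2 ratio of 4.66. COX4I2, the hypoxia-regulated subunit of cytochrome c oxidase, ranged from 489 to 1358 CPM against 1.06 to 17.8 CPM. HIGD1B, another small mitochondrial protein, had 1030 ± 338 CPM against 44.0 ± 39.6 CPM, and FAM162B had 639 ± 146 CPM against 4.59 ± 3.22 CPM. NDUFA4L2, which replaces a subunit of the respiratory chain under low oxygen, had 317 ± 104 CPM against 0.63 to 14.6 CPM. PDGFRB, the receptor that recruits pericytes to vessels, was low at 68.2 ± 23.8 CPM against 10.1 ± 3.69 CPM, and was found in 22.3% of SMMCs, 12.02% of FAPs and no VEC. The proteoglycan CSPG4, known as NG2, had 79.2 ± 21.1 CPM against 5.52 ± 1.96 CPM. Of the 13 tissue-specific mitochondrial subunits described, 9 were higher in every animal by any size, and the 4 at least 2-fold higher were COX4I2, NDUFA4L2, HIGD1B and COX8A. The list median was 0.73.

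In the Notch pathway, which endothelium uses to instruct mural cells, 2 of 16 genes were at least 2-fold higher in every animal and 1 at least 2-fold lower, while 5 were higher and 5 lower by any size. The receptor NOTCH3, restricted to mural cells in most vessels, had 423 ± 183 CPM against 18.1 ± 6.21 CPM. Its target HEY2 had 33.7 ± 16.8 CPM against 1.89 ± 1.51 CPM. The ligand DLL1, at 2.57 ± 6.00 CPM against 31.5 CPM, had the smallest ratio of the list, and the pathway's median log2 ratio was -0.03.

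Of the PDGF, angiopoietin and VEGF genes, 2 of 13 were at least 2-fold higher in every animal (PDGFRB and PDGFA) and 3 at least 2-fold lower (PDGFRA, VEGFC and ANGPTL4), and 3 and 5 were so by any size. PDGFRA, the FAP receptor, had 5.74 ± 10.4 CPM against 304 CPM. Of the TGF-beta and BMP genes, 4 of 26 were at least 2-fold higher and 5 at least 2-fold lower in every animal, and 5 and 9 were so by any size. The ligand BMP5 stood at 347 ± 134 CPM against 27.4 ± 14.2 CPM, and TGFB3 at 164 ± 145 CPM against 6.04 ± 3.19 CPM, with a range from 9.58 to 519 CPM between animals. TGFBR3, the co-receptor betaglycan, was lower at 48.5 ± 15.6 CPM against 335 ± 82.4 CPM.

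Of 27 transcription factors described, 5 were at least 2-fold higher in every animal and 1 at least 2-fold lower, and 8 and 3 were so by any size. TBX2, a T-box repressor, had the largest ratio, 6.21, at 229 ± 81.9 CPM against 3.14 ± 1.89 CPM. NR2F2, which specifies venous vessels, was at 873 ± 228 CPM against 83.9 ± 26.2 CPM, the forkhead factor FOXS1 at 193 ± 42.2 CPM against 21.4 ± 10.2 CPM, and NFATC4, which relays calcium signals, at 58.7 ± 12.5 CPM against 4.86 ± 1.11 CPM. Myocardin (MYOCD), the co-activator of the contractile genes, had too few UMIs for a ratio.

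Matrix genes went both ways. Of 17 basement membrane genes, 2 were at least 2-fold higher in every animal and 3 at least 2-fold lower, and 5 and 6 were so by any size, with a median log2 ratio of 0.08. MFGE8, the milk fat globule protein also called lactadherin, had 1845 ± 374 CPM against 166 ± 36.2 CPM, whereas the linker NID1 had 32.4 ± 20.2 CPM against 664 CPM. The interstitial matrix, which fibroblasts make, had 4 of 38 genes at least 2-fold higher and 11 at least 2-fold lower in every animal, 6 higher and 22 lower by any size, and a median of -1.10. Those at least 2-fold lower included COL3A1 (1010 ± 458 against 4351 CPM) and the fibulin FBLN1 (8.37 ± 18.9 against 385 CPM). Those at least 2-fold higher were the aggrecanase ADAMTS4 (733 ± 278 against 23.9 ± 9.93 CPM), the thrombospondins THBS1 and THBS4, and TIMP3. Among 12 integrin genes, ITGA1, ITGA7 and ITGB1, subunits of collagen and laminin receptors, were at least 2-fold higher in every animal, at 364 ± 73.7, 346 ± 132 and 2020 ± 302 CPM.

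Antigen presentation was low in SMMCs. None of 25 genes was higher in every animal, 8 were at least 2-fold lower in every animal and 16 were lower by any size, with a median log2 ratio of -2.05. The light chain of class I molecules, B2M, had 1080 ± 656 CPM against 5220 CPM, and the class I gene listed as BOLA had 732 ± 509 against 3839 CPM. In the list of immediate early and dissociation response genes, which collagenase digestion is known to induce, 14 of 29 were higher in every animal by any size and 4 were lower. Those higher included FOS, JUN, EGR1 and ATF3, early response transcription factors, with FOS at 2846 ± 1179 CPM against 1593 ± 378 CPM. The 3 at least 2-fold higher in every animal were the chaperone HSPB1 and the matricellular genes CCN1 and CCN2. HSPA1A, the inducible heat shock protein, varied from 679 to 10862 CPM between animals. In the growth and cell cycle list 1 of 30 genes, IGFBP7, was at least 2-fold higher in every animal, at 4807 ± 611 CPM against 1558 ± 312 CPM, and 2 (CDKN1C and DLK1) were at least 2-fold lower. By any size 2 were higher and 6 lower in every animal. Over all genes, 2.40% were at least 2-fold higher and 6.64% at least 2-fold lower, and 7.41% and 15.1% were so by any size. The counts of the growth and cell cycle list lie near those shares.

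Many markers of other cell types were lower in SMMCs than in the other cells, and some were not. The 7 FAP markers summed to 132 to 1851 CPM in SMMCs against 6850 to 20698 CPM in the other cells, and all 7 were lower in every animal, 6 of them at least 2-fold. The 8 VEC markers summed to 183 to 575 CPM against 602 to 2350 CPM, and 4 of 8 (PECAM1, CDH5, VWF and KDR) were lower in every animal, with PECAM1 at least 2-fold lower in each. ESAM was at 149 ± 49.7 CPM against 130 ± 56.9 CPM and was higher in 5 animals and lower in 5, and EMCN was at 111 ± 32.5 CPM against 177 ± 92.0 CPM. The leukocyte gene PTPRC had 0 UMIs in 548 cells, which allows up to 0.70% of cells with a UMI by the upper Wilson bound, and the satellite cell genes PAX7 and CALCR also had none. Of the 10 myocyte genes 9 were lower in every animal, 5 of them at least 2-fold, with ACTA1 found in 27.9% of SMMCs against 36.7% of VECs, a share at or below that of cells that should lack it. Of the lymphatic, macrophage, lymphocyte, neutrophil and glial markers, 6 of 6, 7 of 8, 6 of 6, 3 of 4 and 1 of 3 were lower in every animal, of which 5, 7, 5, 2 and 0 were at least 2-fold lower, and none was higher in every animal. The tenocyte list had THBS4 higher, at 925 ± 280 CPM against 228 ± 98.8 CPM, and KERA lower. Among adipocyte genes, FABP4, the fatty acid carrier, was measurable at 43.6 ± 43.8 CPM against 2.07 ± 3.50 CPM, and was found in 6.20% of SMMCs. Red blood cell genes had too few UMIs.

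The SMMCs held several expression patterns. Clustering of their own counts gave 5 clusters at a resolution of 0.5, with 177, 155, 104, 74 and 38 cells. The genes that define a cluster are given here as its description. Cluster 3 (18.98% of cells, 4046.5 UMIs per median cell) had the highest levels of several contractile genes, though CALD1 was at 3269 CPM in it and 3400 CPM in cluster 2. MYH11 reached 3003 CPM in it, with the other clusters between 0 and 407 CPM, and ACTA2 reached 18071 CPM against 3112 to 7520 CPM. The intermediate filament desmin (DES) had 2705 CPM against 44.3 to 108 CPM. Of the pericyte genes, RGS5 was at 515 CPM and KCNJ8 at 34.5 CPM, but COX4I2 was at 882 CPM in 86.5% of its cells, FAM162B at 574 CPM in 65.4% and HIGD1B at 415 CPM in 60.6%. This cluster was smooth muscle-like by the marker list. Its leading genes were SPTSSB, CSDC2, KCNAB1, DES, RCAN2, DKK1, RAMP1, CRYAB, INHBA and RND3, and include a potassium channel subunit (KCNAB1), a part of the CGRP receptor (RAMP1) and a small heat shock protein (CRYAB).

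Clusters 1 and 2 (32.3% and 28.3% of cells) were pericyte-like. KCNJ8 was at 1240 and 1090 CPM in them, and at 34.5 to 411 CPM in the others. ABCC9 followed at 588 and 878 CPM against 8.11 to 185 CPM, and RGS5 at 2362 and 3891 CPM against 97.7 to 1510 CPM. Not every gene of the pericyte list was higher in them than in cluster 3. CSPG4 was at 111 and 85.6 CPM against 111 CPM there, MCAM at 46.3 and 34.9 against 107 CPM, and FOXS1 at 191 and 263 against 302 CPM. MYH11 was at 12.1 and 0 CPM. ACTA2 was found in 96.0% and 92.9% of their cells, at 3958 and 3229 CPM, so the actin marker of the label was present in cells with nearly no smooth muscle myosin.

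The pericyte-like clusters had different leading genes. Leading genes of cluster 1 included the chemokine CCL2 (5701 CPM), SCG3, CREB3L1, ADAMTS12, KCNJ8, DDIT4, RNF103, SPRY2 and RASD1. Cluster 2 was led by STMN2, FGL1, APOA1, AGTR1, HSPA1A, STEAP4, NDUFA4L2, TMEM176B, TMEM176A and DNAJB1. HSPA1A was at 14462 CPM in cluster 2 and 3602 CPM in cluster 1, and AGTR1 at 1141 and 475 CPM. Of the 155 cells of cluster 2, 73 came from donor 4 and 29 from donor 7, the donors whose SMMCs had 9976 and 10862 CPM of HSPA1A, against 679 to 3379 CPM in the other 8. Cells of cluster 2 were also the shallowest, with 1932 UMIs per median cell against 2485 in cluster 1. At a resolution of 0.2 clusters 1 and 2 merged. They also merged when cells were thinned to 2000 UMIs before clustering, which left out shallower cells. There 126 of 130 cells of cluster 1 and all 74 of cluster 2 shared a cluster, so their split was not found at equal depth.

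Cluster 4 (74 cells, 13.5%) was left unnamed. CNN1 was found in 89.2% of its cells and MYH11 in 56.8%, yet RGS5 was found in 29.7% and DES was at 102 CPM. Elastin (ELN) was at 633 CPM in it against 3.17 to 134 CPM in the other clusters, and COL1A1 at 824 CPM against 30.4 to 302 CPM. Of the 38 interstitial matrix genes, 18 had their highest level in cluster 4, among them fibronectin (FN1) at 2703 CPM, and 10 were lower in it than in both clusters 1 and 2, such as ASPN at 622 CPM against 1133 and 1017 CPM. Of the 17 basement membrane genes, 2 were highest in it and 9 were lower than in both, such as COL4A1 at 1531 CPM against 2749 and 2896 CPM. Follistatin (FST), which binds activin, was found in 71.6% of its cells and in 0 to 1.13% of the other clusters, and ID4, an inhibitor of basic helix-loop-helix factors, was at 993 CPM against 3.17 to 24.3 CPM. PRRX1, a mesenchymal factor, was at 831 CPM against 41.1 to 225 CPM. Its other leading genes were ECRG4, DIPK1C, ALDH1A1, HMCN1, MEDAG, NPNT, TNC and BASP1. Of the 7 FAP markers, COL1A1 (824 CPM), DCN (444 CPM), MFAP5 (77.7 CPM), LUM (75.5 CPM) and DPT (48.9 CPM) were higher in it than in any other cluster, where DCN was at 44.6 to 193 CPM, whereas PDGFRA was at 13.3 CPM here and 12.7 CPM in cluster 2, and SCARA5 at 13.3 and 41.2 CPM. It was the deepest cluster, with 6326 UMIs per median cell, and shares of cells with a UMI rise with depth.

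Cluster 5 (38 cells from 8 animals, 6.93%) was left unnamed too, because endothelial transcripts led it. PECAM1 was found in 68.4%, CDH5 in 63.2% and CLDN5 in 73.7% of its cells, against 0 to 2.88% for PECAM1 in the other clusters and 78.9% in VECs. The same cells held RGS5 in 94.7% and ACTA2 in 94.7%. Whether each barcode held 1 cell or a mural and an endothelial cell of 1 animal cannot be told apart, since doublets were found from donor genotypes only. Without these cells 242 genes were at least 2-fold higher and 824 at least 2-fold lower than in other cells in every animal, of which 233 and 644 were the same genes as with them.

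**Figure D3:**
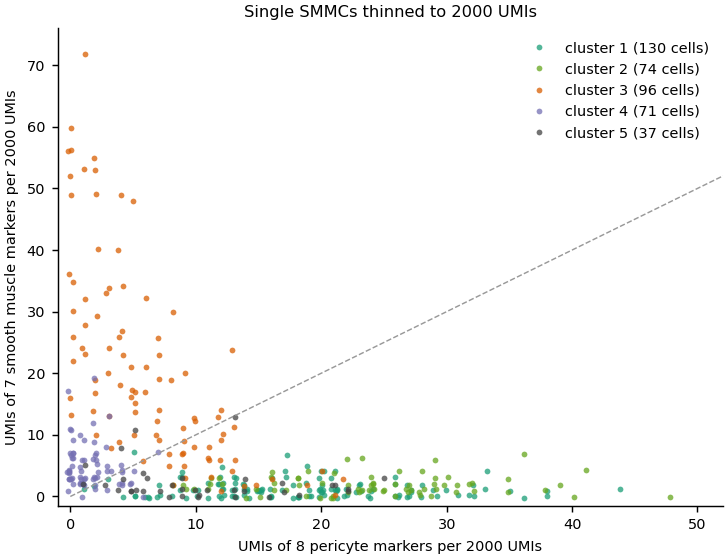
Each of 408 SMMCs with at least 2000 UMIs, thinned to 2000, placed by its UMIs of 8 pericyte markers (horizontal axis) and of 7 smooth muscle markers (vertical axis), coloured by cluster, with a small random shift and a dashed line of equality. Cells of clusters 1 and 2 lie along the horizontal axis (medians of 18 and 24 pericyte UMIs and of 1 and 2 smooth muscle UMIs) and cells of cluster 3 reach up to 72 smooth muscle UMIs.

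To compare cells at 1 depth, each was thinned to 2000 UMIs, which left out 140 shallower cells. This kept 130 of 177 cells of cluster 1, 74 of 155 of cluster 2 and 96 of 104 of cluster 3. It kept 71 of 74 of cluster 4 and 37 of 38 of cluster 5, so the shares below under-represent clusters 1 and 2. The smooth muscle markers were MYH11, CNN1, LMOD1, ACTG2, DES, SYNPO2 and PLN, and the pericyte markers KCNJ8, ABCC9, COX4I2, HIGD1B, FAM162B, RGS5, NDUFA4L2 and CSPG4. Of the 408 cells, 268 (65.7%) had more pericyte UMIs, 130 (31.9%) more smooth muscle UMIs and 10 the same number, and 31 lay within 1 UMI of equality. At least 1 UMI of both lists was found in 303 cells, or 74.3%. A UMI of the smooth muscle list was found in 82.8% of the 408 and one of the pericyte list in 91.4%. Among 830 VECs thinned in the same way, 7.11% held the former, 5.78% the latter and 6 cells (0.723%) both. Among 1193 FAPs these shares were 20.1%, 16.2% and 3.94%, and among 601 SCs 31.8%, 6.16% and 2.66%. Without thinning, a UMI of DES was found in 39.1% of FAPs and 43.3% of SCs, against 24.1% of SMMCs. Such a UMI does not show that a cell expresses the gene. A division by these sums is a range of values and not a cell type. In cluster 1, 126 of 130 cells had more pericyte UMIs, and in cluster 2 all 74 did. In cluster 3, 68 of 96 had more smooth muscle UMIs, with medians of 16.5 smooth muscle and 5 pericyte UMIs. In cluster 4, 57 of 71 had more smooth muscle UMIs, but at medians of 4 and 1. In cluster 5, 32 of 37 had more pericyte UMIs.

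All 10 animals had cells of clusters 1 to 4. The smooth muscle-like cluster made up 14.6% to 30.8% of the SMMCs of an animal, with 14.6% to 23.0% in calves and 17.9% to 30.8% in adults. The shares of clusters 1 and 2 varied more widely, from 8.28% to 57.7% and from 3.85% to 50.3%. These shares are given without a test.

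No difference in the share of SMMCs between calves and adults was detectable with these animals. The share was 10.8%, 19.7%, 5.44%, 13.3% and 16.8% in the calves (donors 2, 4, 5, 7 and 10) and 8.84%, 18.3%, 7.73%, 11.02% and 11.2% in the adults (donors 1, 3, 6, 8 and 9). The groups overlapped throughout. Their means were 13.2% ± 5.52 (SD, n = 5) and 11.4% ± 4.10 (SD, n = 5), a difference of 1.79 percentage points (exact permutation test, two-sided, p = 0.571).

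The number of SMMCs per VEC sets mural cells against the endothelium they wrap. There were 0.308, 0.466, 0.471, 0.570 and 0.688 SMMCs per VEC in the calves and 0.386, 0.519, 0.467, 0.408 and 0.366 in the adults. The log2 ratios differed by 0.19 between calves and adults (exact permutation test, two-sided, p = 0.397). These are shares of released cells, and release from the tissue and abundance in it cannot be told apart.

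The balance of UMIs of the 7 smooth muscle markers (PLN among them) to those of the 8 pericyte markers, summed over all SMMCs of an animal, was lower in calves by the raw p and not after adjustment. On the log2 scale it was -0.69, -1.04, -1.75, -0.78 and -0.42 in the calves and -0.28, 0.17, -0.77, 0.67 and 1.15 in the adults. Donor 6 was the adult that lay among the calves. The mean was -0.94 ± 0.51 (SD, n = 5) in calves and 0.19 ± 0.76 (SD, n = 5) in adults, a difference of -1.13 (exact permutation test, two-sided, p = 0.0238). Adjusted over the 3 tests on animals the p was 0.0714, and did not pass 0.05, where the smallest raw p the design allows is 0.00794. With DES left out of the contractile to pericyte UMI balance the difference was -0.91 (exact permutation test, raw p = 0.0476), which did not pass after adjustment. With all 7 smooth muscle markers and without the cells of cluster 5 it was -1.16, with an adjusted p of 0.0476 by the same exact test. With 1 animal left out and all clusters kept it ranged from -1.37 to -0.89, with raw p between 0.0159 and 0.0476 by the exact test. After adjustment it passed 0.05 without donor 6 (adjusted p = 0.0476, exact test) and did not with any other animal left out. At 2000 UMIs per cell, the share of SMMCs with more smooth muscle than pericyte UMIs was 28.9% to 36% in calves and 25% to 39.3% in adults, which overlapped. Taken singly, the smooth muscle markers summed to 1461 to 4458 CPM in calves and 3353 to 11654 CPM in adults. The pericyte markers summed to 4799 to 7211 CPM in calves, and the adults lay within that range at 4839 to 5730 CPM. Neither sum was tested alone.

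**Figure D4:**
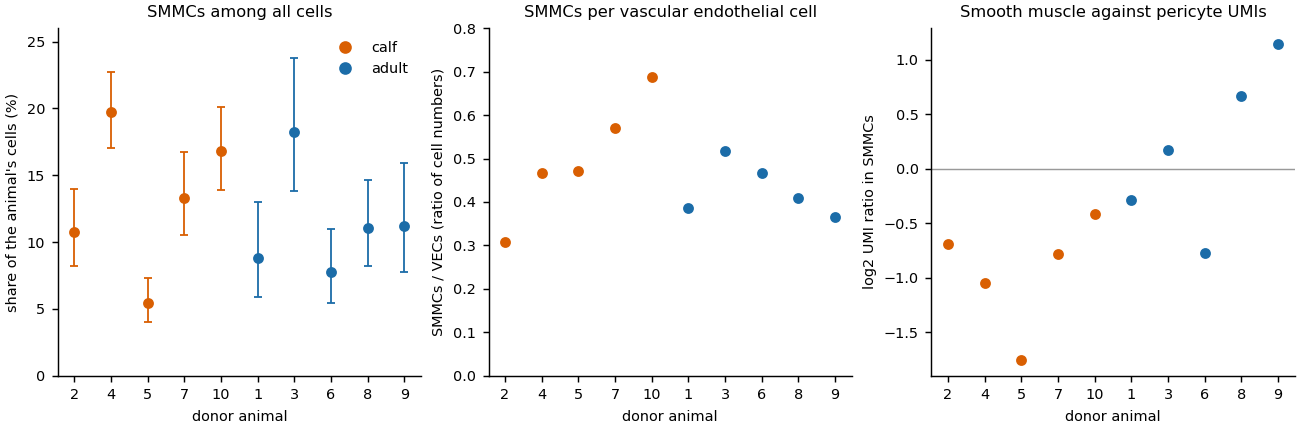
SMMC share of kept cells in percent with 95% Wilson intervals, SMMCs per VEC, and the log2 balance of UMIs of 7 smooth muscle and 8 pericyte markers, for each donor animal, coloured by age. Calves and adults overlap in the first 2 measures, and the balance of calves lies between -1.75 and -0.42 and that of adults between -0.77 and 1.15.

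Few genes were called between calf and adult SMMCs. With these animals, a gene that was not called is not shown to be unchanged. Of 2246 genes with enough UMIs, 13 (0.579%) were higher in calves and 6 (0.267%) were lower, at an adjusted p below 0.05 and a change of more than 2-fold (edgeR quasi-likelihood test on UMIs summed per animal, with Benjamini-Hochberg adjustment). The largest differences were those of IGFBP5, higher in calves, and TNFRSF12A, lower in calves. At an unadjusted p below 0.05 there were 357 genes. In 85 of the 2246 genes (3.78%) the calf and adult values did not overlap, and 16 of the 19 called genes were among them. All log2 differences below are from that fit.

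SLC9A3R2 (ENSBTAG00000013479), the scaffold NHERF2 that links membrane transporters to the cytoskeleton, had 400, 382, 377, 294 and 433 CPM in the calves, in the donor order above, and 204, 177, 172, 183 and 122 CPM in the adults. Every calf lay above every adult. The log2 difference was 1.15 (SE 0.17, adjusted p = 0.0044). The group means were 377 ± 51.3 and 172 ± 30.2 CPM.

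IGFBP5 (ENSBTAG00000054218), an IGF-binding protein, had 128, 444, 377, 427 and 179 CPM in the calves and 38.3, 23.1, 67.1, 58.7 and 61.1 CPM in the adults. The lowest calf was above the highest adult, and the log2 difference of 2.67 (SE 0.43, adjusted p = 0.0096) was the largest of the 13. Within SMMCs, IGFBP5 was at 857 CPM in cluster 4 and at 3.17 to 166 CPM in the other clusters. Cluster 4 had 59 calf and 15 adult cells, which were 6.25% to 29.3% of the SMMCs of a calf and 7.14% to 14.3% of those of an adult, and its part in the IGFBP5 difference was not tested. ANGPTL2 (ENSBTAG00000011810), a secreted angiopoietin-like protein, had 98.1, 95.1, 141, 133 and 151 CPM in the calves and 12.8, 30.8, 38.3, 39.1 and 40.7 CPM in the adults, a log2 difference of 1.87 (SE 0.30, adjusted p = 0.0044). RARRES2 (ENSBTAG00000004215), the adipokine chemerin, had 1279 ± 278 CPM in calves and 619 ± 133 CPM in adults, a log2 difference of 1.07 (SE 0.18, adjusted p = 0.0061).

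TNFRSF12A (ENSBTAG00000012082), the receptor of the cytokine TWEAK, was lower in calves. It had 83.0, 35.7, 80.8, 71.2 and 118 CPM in the calves and 344, 346, 182, 457 and 539 CPM in the adults, with no overlap. The log2 difference was -2.29 (SE 0.33, adjusted p = 0.0044), the largest of the 6. MSRB1 (ENSBTAG00000049306), which reduces oxidised methionines including those of actin, had 57.5 ± 23.2 CPM in calves and 184 ± 58.9 CPM in adults (log2 difference -1.77, SE 0.33, adjusted p = 0.012).

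FLNC and NEXN, whose products bind actin, were lower in calves. Filamin C (FLNC, ENSBTAG00000006253), the muscle filamin, had 37.7, 29.7, 0, 28.5 and 41.0 CPM in the calves and 89.3, 131, 86.2, 137 and 102 CPM in the adults (log2 difference -1.87, SE 0.35, adjusted p = 0.012). Nexilin (NEXN, ENSBTAG00000008921), an actin filament-binding protein of adherens junctions and Z-discs, had 136, 295, 188, 185 and 179 CPM in the calves and 510, 938, 326, 1024 and 1130 CPM in the adults (log2 difference -1.96, SE 0.34, adjusted p = 0.020). For both, the lowest adult lay above the highest calf. TGFB2 (ENSBTAG00000005359), a TGF-beta ligand, was the called member of that pathway, with 82.3 ± 28.1 CPM in calves and 188 ± 27.8 CPM in adults (log2 difference -1.07, SE 0.23, adjusted p = 0.028). PSMD1, a proteasome subunit, was the other gene called lower (log2 difference -1.18).

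The other genes called higher in calves had log2 differences between 1.03 and 1.59. Among them were the myo-inositol synthase ISYNA1 (1.29), the outer mitochondrial membrane protein TSPO (1.10), the septin SEPTIN4 (1.08), the glycophorin GYPC (1.12), FRMD3 (1.10), the Ena/VASP protein EVL (1.09) and the small GTPase RERG (1.03). In 3 called genes calves and adults overlapped, and these were CST6, a cystatin protease inhibitor (1.22), TSPO and RGS16, a regulator of G protein signalling (1.59). GUCY1A1, the nitric oxide receptor subunit, and MYH9, non-muscle myosin, passed the p threshold at log2 differences of 0.95 and 0.77, below 2-fold.

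**Figure D5:**
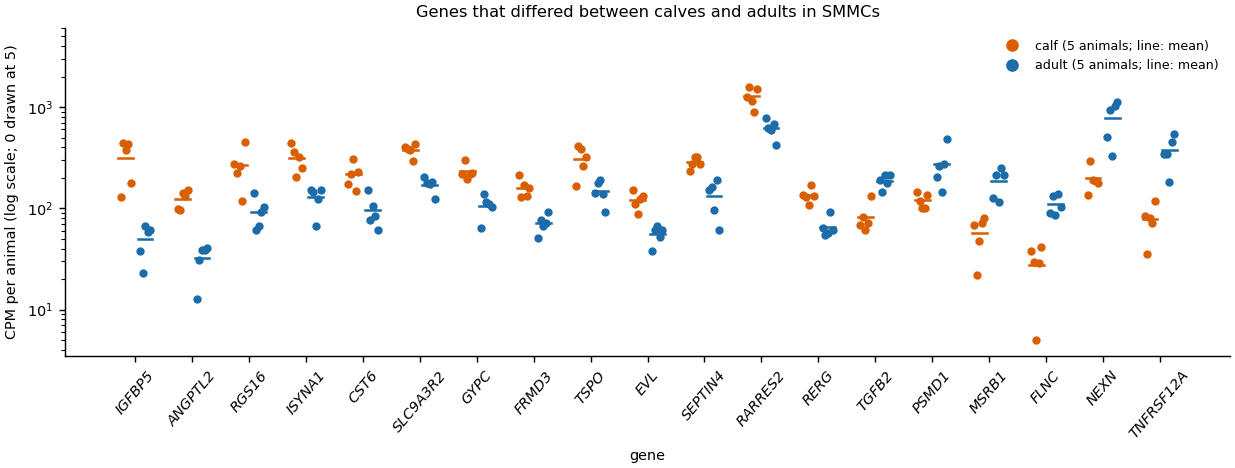
CPM per animal on a log axis (0 drawn at 5) for genes called between calves and adults in SMMCs, with 5 calves and 5 adults per gene and a line at the mean. The 5 calf points of SLC9A3R2 lie between 294 and 433 CPM above the adults at 122 to 204 CPM, and the 5 calf points of NEXN at 136 to 295 CPM lie below the adults at 326 to 1130 CPM.

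The number of called genes rested on single animals and on the choice of cells. It was 6 higher and 4 lower without donor 3, 7 and 3 without donor 5, 20 and 13 without donor 6, 7 and 6 without donor 9, 9 and 3 without donor 2, and 10 and 1 without donor 8. SLC9A3R2, ANGPTL2, TNFRSF12A and IGFBP5 were called with any 1 of the 10 animals left out, whereas NEXN and TSPO were called in 4 of these 10 fits, TGFB2, RGS16 and PSMD1 in 3, EVL in 2 and RERG in 1. With the pericyte-like clusters 1 and 2 alone, 955 genes were tested and 1, SEPTIN4, was called.

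Sums of other cell types' markers are given here by age. FAP markers summed to 347 to 1851 CPM in calf SMMCs and to 132 to 472 CPM in adult SMMCs, with the highest value in donor 5. VEC markers summed to 437 to 575 CPM in calves and 183 to 565 CPM in adults, and HSPA1A stood at 679 to 10862 CPM and 1059 to 3162 CPM. The groups overlapped in all of these values, and none of the FAP or VEC markers tested was called by edgeR. In both lists 1 of 2 had an unadjusted p below 0.05, against 357 of all 2246 genes. The part of these markers in the differences was not tested.

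No gene of the contractile list passed the test between calves and adults, at 0 of 16 by edgeR. An unadjusted p below 0.05 was found for 6 of the 16, against 357 of all 2246 genes. All 16 had a negative difference, whereas 1100 of all 2246 genes had a positive one. The list's median was -0.48 and that of all genes tested was -0.01. DES had the lowest value, -2.12, and its groups overlapped, with 626 CPM at most in calves and 613 CPM at least in adults. CNN1 had the smallest adjusted p of the list, 0.126, at -1.71. The members were measured in the same cells, so their shared sign is a description.

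Other lists had few called members or none. Their counts at an unadjusted p below 0.05 stand against 357 of all 2246 genes tested. All 14 growth and cell cycle genes tested had a positive difference, with a median of 0.29. IGFBP5 was the called member, and 6 of the 14 had an unadjusted p below 0.05. Of 24 interstitial matrix genes, 20 were positive (median 0.47) and none was called by edgeR, with 8 at an unadjusted p below 0.05. DCN, the FAP proteoglycan, had the highest value there, 1.62, and lay between 65.4 and 956 CPM in calves. Of 12 basement membrane genes 10 were positive (median 0.39) and none was called, with 5 at an unadjusted p below 0.05. Of 10 transcription factors 8 were positive (median 0.60), with MEF2C at the smallest adjusted p, 0.0857, and 6 at an unadjusted p below 0.05. Of 11 pericyte genes 8 were positive and 3 negative (median 0.30), with none called and 4 at an unadjusted p below 0.05. NOTCH3 was the highest at 1.02 (edgeR, adjusted p = 0.0553) and HIGD1B the lowest at -0.72 (edgeR, adjusted p = 0.0732). The control of contraction list had 8 of 17 positive, with RGS16 called and 8 at an unadjusted p below 0.05. In 3 of these 17 genes calves and adults did not overlap, against 85 of all 2246. Of 20 adhesion genes 5 were positive and none was called, with 8 at an unadjusted p below 0.05. The ion channel and vasoactive receptor lists had 6 tested genes each, none called, and 0 and 1 at an unadjusted p below 0.05. Of 13 TGF-beta and BMP genes 6 were positive and TGFB2 was called, with 4 at an unadjusted p below 0.05. None was called by edgeR in the Notch, PDGF, integrin, mitochondrial, immediate early and antigen presentation lists, with 1, 0, 1, 2, 5 and 2 genes at an unadjusted p below 0.05.

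Some of these age differences were not shared by the neighbouring cell types of the same animals. The difference between calf-adult contrasts was tested in 1 model over both cell types with the animal as a block. Against FAPs, 16 of 5349 genes (0.299%) differed, 6 in the positive and 10 in the negative direction. NEXN had the smallest p of the genes also called in SMMCs and differed by -2.32 (SE 0.29, adjusted p = 0.000178), as its difference in FAPs was 0.36. FLNC differed by -2.62 (SE 0.52, adjusted p = 0.0195) and MSRB1 by -1.73 (SE 0.39, adjusted p = 0.0434). The actin-linked genes CSRP2 and PGM5 were also among the 16, but were not called in SMMCs themselves, with log2 differences of -1.70 and -0.17 there and 1.45 and 1.85 in FAPs. Without the block, 0 genes differed in the positive and 3 in the negative direction, and single animals moved the counts. They were 2 and 8 without donor 1, 4 and 5 without donor 2, 0 and 3 without donor 3, 7 and 6 without donor 4, 2 and 3 without donor 5 or donor 9, 15 and 12 without donor 6, and 1 and 3 without donor 8.

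Against VECs, 23 of 4496 genes (0.512%) differed, 20 in the positive and 3 in the negative direction. SLC9A3R2 differed by 2.72 (SE 0.29, adjusted p = 6.22e-05). It was higher in calves in SMMCs and also in FAPs (1.33, adjusted p = 0.0339), and lower in calves in VECs (-1.61, adjusted p = 0.00839). ISYNA1 differed by 1.80 (SE 0.29, adjusted p = 0.00276), TSPO by 1.66 (SE 0.35, adjusted p = 0.0358), MSRB1 by -1.91 (SE 0.44, adjusted p = 0.0431) and FLNC by -2.29 (SE 0.54, adjusted p = 0.0495). IGFBP6, an IGF-binding protein, had the same adjusted p as SLC9A3R2 without being called in SMMCs, where its difference was 0.30 against -1.33 in VECs. The counts were 11 and 0 without donor 2, 9 and 0 without donor 3, 12 and 1 without donor 5, 30 and 8 without donor 6, 14 and 0 without donor 8, 8 and 0 without donor 9, and 11 and 1 without donor 10.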

How the data were processed

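The deposited values were raw UMI counts per gene and barcode. Per the submitters' processing notes and the study's methods, the authors used Cell Ranger 6.0.1 on ARS-UCD1.2 with Ensembl annotations, assigned barcodes to donors with demuxlet, filtered cells within a range of median absolute deviations, and labelled cell types from clusters of sctransform values. The percent of mitochondrial UMIs is the authors' deposited column. Of 8980 barcodes 5237 were singlets and 8.11% doublets between donors. No doublet caller was run, so doublets within a donor remain. Donor numbers are in the deposited cell table, and ages and sexes were taken from the study's animal table. Of the columns describing kept cells 6 of 16 were used, and 2 of the 11 describing all barcodes. A corrected expression table and the cultured libraries were not used here.

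For each donor and cell type with at least 10 cells, counts were added up. SMMCs and other cells were described for genes with at least 100 UMIs over both. Calves and adults (no p-value measures more than the spread between these 5 and 5 animals, all in 1 library) were compared with edgeR 4.0.16 (R 4.3.3), quasi-likelihood test, TMM scaling and filterByExpr, with calls at an adjusted p below 0.05 and more than 1 on the log2 scale either way, with DESeq2 1.42.0 as an alternative. The contrasts between cell types had the animal as a block. Values per animal were compared by exact permutation tests (scipy 1.17.1). Clusters were made with scanpy 1.11.5 from 1500 variable genes, 20 principal components and 15 neighbours. On simulated counts for 2246 genes with the comparison of calves and adults, 67, 67 and 66 genes were changed by log2 1.5, 2 and 3. Of these 92.5%, 100% and 98.5% were recovered, with 1 false call. Each gene was drawn independently there, and more genes were changed than the 13 and 6 called here, which eases the adjusted threshold. Such recovery cannot be assumed for the data, where DES (-2.12) and CSRP2 (-1.70) were not called. The genes named are the 3 markers, in each list the 4 of highest level and the largest and smallest ratios, the 25 of largest ratio, called genes without overlap and called list members, called genes of the contrasts between cell types, and 10 leading genes per cluster, of which 1 in cluster 1 is not reported here. Other genes are named as examples chosen after their values were seen. Members and lists were chosen with earlier results of these data known. Gene coordinates and sequences are not given, because no genome or annotation of ARS-UCD1.2 was at hand.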

Additional observations from a re-analysis of the deposited data

Results flagged for a closer look

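Of 54 groups of 5 animals examined for a value far from the others, 2 had one, where chance gives about 1 in 20. RERG in the adults was 91.3 CPM in donor 8, with the next adult at 63.8 CPM. MYLK in the adults was 1130 CPM in donor 9, with the next at 747 CPM.

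The difference between calves and adults differed between cell types for genes called in SMMCs. Against FAPs the differences between contrasts were -2.32 for NEXN, -2.62 for FLNC and -1.73 for MSRB1 on the log2 scale. Against VECs they were 2.72 for SLC9A3R2, 1.80 for ISYNA1, 1.66 for TSPO, -1.91 for MSRB1 and -2.29 for FLNC. NEXN against FAPs, and SLC9A3R2 and ISYNA1 against VECs, stayed past the threshold in all 13 alternatives run for them. Against FAPs FLNC did so in 8 of 13 and MSRB1 in 5 of 13, and against VECs TSPO in 6, MSRB1 in 5 and FLNC in 5 of 13.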

How the results depend on the processing

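Of 164 alternatives for counts and for tests on animals, 107 kept the value within the limits used, 55 moved it and 2 brought it past the threshold, and of 830 for single genes 317 lost the call and none changed direction. The 243 higher and 671 lower genes of SMMCs (at least 2-fold in every animal) became 126 and 429 at 4-fold, 130 and 120 with summed profiles thinned to the smallest total, and 241 to 265 and 659 to 722 with 1 animal left out. The 13 higher and 6 lower genes in calves became 84 and 32 with no filter on low counts, 0 and 2 with at least 30 cells per animal, 5 and 3 with thinned profiles, 24 and 14 by DESeq2, 11 lower with no limit on the difference, 1 and 0 in clusters 1 and 2 only, and 6 to 20 and 1 to 13 with 1 animal left out (7 higher without donor 5 or donor 9). Against FAPs, 6 and 10 genes became 49 and 18 with no filter, 0 and 3 with no replicate block for the animal, and 0 to 15 and 3 to 12 with 1 animal left out. Against VECs, 20 and 3 became 72 and 10 with no filter, 16 and 2 without the block, and 8 to 30 and 0 to 8 with 1 animal left out. The 5 clusters became 9 at a resolution of 1.0 and 2 when cells were placed by summed markers. Clusters 1 and 2 merged when cells thinned to 2000 UMIs were clustered. With 1 animal left out, the share difference was 0.164 to 3.74 points, that of SMMCs per VEC 0.06 to 0.35 and that of the balance -1.37 to -0.89. With DES left out, the contractile to pericyte UMI balance differed by -0.91 (exact permutation test, raw p = 0.0476), and did not pass after adjustment. With DES kept and without cluster 5 cells it differed by -1.16 (exact permutation test, adjusted p = 0.0476). The thinned and cluster alternatives test fewer genes or cells, and those with no filter test more genes. The alternative with at least 30 cells per animal leaves out donors 1, 6 and 9 (22, 28 and 26 SMMCs), all adults, so that donors 3 and 8 were its only adults. Otherwise the cause was not tested. The alternatives without DES, without cluster 5 and with clusters 1 and 2 only were chosen after seeing the data. At this depth 15 of 32 receptors and 9 of 22 channels and pumps had too few UMIs to describe, and low expression cannot be told apart from depth.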
